A study of Homo sapiens with 4 samples.

Results

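Translational efficiency, the number of ribosome footprints on an mRNA for each unit of that mRNA, was compared between wild-type SW480 cells and SW480 cells with the genotype label IMP1-/-. It was measured for 9598 of the 19192 genes in the deposited counts, the genes with at least 50 reads over both footprint libraries and at least 50 over both RNA libraries. For each gene the ratio of footprints to RNA in the knockout library was divided by the same ratio in wild type, and the genes were then split into those whose footprints moved while RNA was stable and those whose RNA moved while footprints were stable. SW480 is an established line from a human colorectal adenocarcinoma, and IMP1, the product of the gene IGF2BP1, binds RNA. The 4 groups were wild-type footprints, wild-type RNA, IMP1-/- footprints and IMP1-/- RNA, with 1 library each, made from 3 pooled culture plates. A footprint library and an RNA library were made for each genotype, so no difference here has a replicate check. No source used here says how the knockout was made or whether it is 1 clone, so genotype cannot be told apart from clone or culture. For wild-type RNA the label for the cell line is SW840 where all others give SW480, and every value of translational efficiency here rests on that library.

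Ribosome profiling digests RNA outside the ribosome and sequences the fragment left inside it, so that footprint counts follow the number of ribosomes on an mRNA and RNA counts follow the number of mRNA molecules. The ratio changes when ribosomes load onto an mRNA more or less often, when they move along it at another speed, or when mRNA is held out of translation. Some mRNA families are known for control at this step. Messages for ribosomal proteins and elongation factors begin with a 5′ terminal oligopyrimidine (TOP) tract, through which mTOR signalling and LARP1 set their loading. Ferritin messages carry an iron-responsive element, a hairpin that iron regulatory proteins bind when iron is scarce, and stress messages such as ATF4 are controlled by upstream open reading frames. IMP1 itself binds the coding regions and 3′ untranslated regions (UTRs) of many mRNAs and is known for holding them back from translation or decay.

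Library totals were 3782874 counts for wild-type footprints, 3778316 for knockout footprints, 5551479 for wild-type RNA and 4932388 for knockout RNA. The epithelial markers EPCAM, KRT8, KRT18 and KRT19 had 1081 or more reads in each of the 4 libraries. KRT20 and LGALS4, markers of differentiated colon epithelium, had 0 reads in all of them. CDX1 and CDH17 had 2 and 3 reads in wild-type RNA and 0 in the other libraries. CDH1 had 83 and 286 RNA reads and 88 and 275 footprints, wild type first, and CDX2 had 268 and 103 and 108 and 72. The microvillus gene VIL1 had 335 footprints and 160 RNA reads in wild type against 0 and 2 in the knockout libraries. Of 10 leukocyte and endothelial markers and 9 mesenchymal ones in the files, 5 and 7 had under 10 reads in both RNA libraries, with summed RNA levels of 376 and 223 CPM (counts scaled to the library total) for the former and 75.3 and 32.6 for the latter, wild type first. The leukocyte markers PTPRC and CD3E and the fibroblast markers DCN and FAP had 0 reads in all libraries. FN1, also on the mesenchymal list, had 403 and 132 RNA reads and 435 and 122 footprints. The endothelial receptor KDR had 1969 and 843 RNA reads but 6 and 4 footprints. CD68, of macrophage lysosomes, had 26 and 221 RNA reads and 4 and 198 footprints. The 8 neuronal and other lineage markers summed to 78.5 and 50.5 CPM, with NEFL, ALB and AFP at 0. SNAP25 had 54 and 20 RNA reads and 36 and 55 footprints. TUBB3 had 276 and 120 RNA reads and 286 and 273 footprints, and DES 97 and 87 and 53 and 164. The part of all these markers in the results was not tested.

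The targeted gene, IGF2BP1 (ENST00000290341, chr17:48997412-49055650, plus strand, GRCh38), had nearly level RNA and fewer footprints. It had 598 wild-type and 571 knockout-labelled RNA reads, against 285 and 149 footprints. Its RNA change was 0.08 and its footprint change −0.93, both log2 ratios after scaling, knockout over wild type. The change in translational efficiency (TE change, the footprint change minus the RNA change) was −1.02, with a 95% counting interval of −1.35 to −0.69. A gene was called when TE changed at least 2-fold and this interval left out 0. These intervals come from read counts alone, cover no spread between cultures, and stand in for no test. IGF2BP1 therefore passed the call for lower TE, while its footprints fell just short of 2-fold. Because its RNA was not lower, the counts do not check the genotype label, and the libraries are called knockout-labelled from here on. Its paralog IGF2BP2, with 482 and 486 footprints and 945 and 799 RNA reads, had a TE change of 0.10 (−0.12 to 0.33). The other paralog, IGF2BP3, had 256 and 274 footprints on 300 and 203 RNA reads, and its TE change of 0.51 (0.15 to 0.86) was under the fold for a call.

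TE changes were centred near 0 and went both ways in nearly equal number. The median over all 9598 genes was 0.03, the quartiles were −0.37 and 0.42, and the middle 90% of genes ran from −1.09 to 1.12. TE was called higher for 620 genes (6.46%) and lower for 603 (6.28%), together 1223 (12.7%). RNA was called higher, by the same fold and an exact interval, for 507 genes (5.28%) and lower for 758 (7.9%). Footprints were called higher for 826 genes (8.61%) and lower for 934 (9.73%). Of the 507 genes with higher RNA, 255 also had higher footprints, 4 had lower footprints and 248 had neither. Among the 758 with lower RNA, 409 had lower footprints, 8 had higher footprints and 341 had neither. In the other direction, footprints were higher for 563 genes and lower for 521 whose RNA was not called. Of all TE calls, 31.8% fell on genes for which neither RNA nor footprints were called on their own.

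A gene was placed in a footprint-led group when its footprints changed at least 2-fold with an exact 95% interval that excluded a ratio of 1, while RNA stayed within 0.32 on the log2 scale. The RNA-led groups used the reverse rule. This gave 197 footprint-led genes with higher footprints (2.05%) and 195 with lower footprints (2.03%). It gave 72 RNA-led genes with higher RNA (0.75%) and 86 with lower RNA (0.896%). The values that chose these genes are given below as a description only, and the groups are not evidence of their own direction. The median footprint change was 1.24 in the first group and −1.24 in the second. The median RNA change was 1.22 in the third and −1.23 in the fourth. Of the 4 groups in this order, 155, 151, 55 and 65 genes also passed the TE call.

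**Figure D1:**
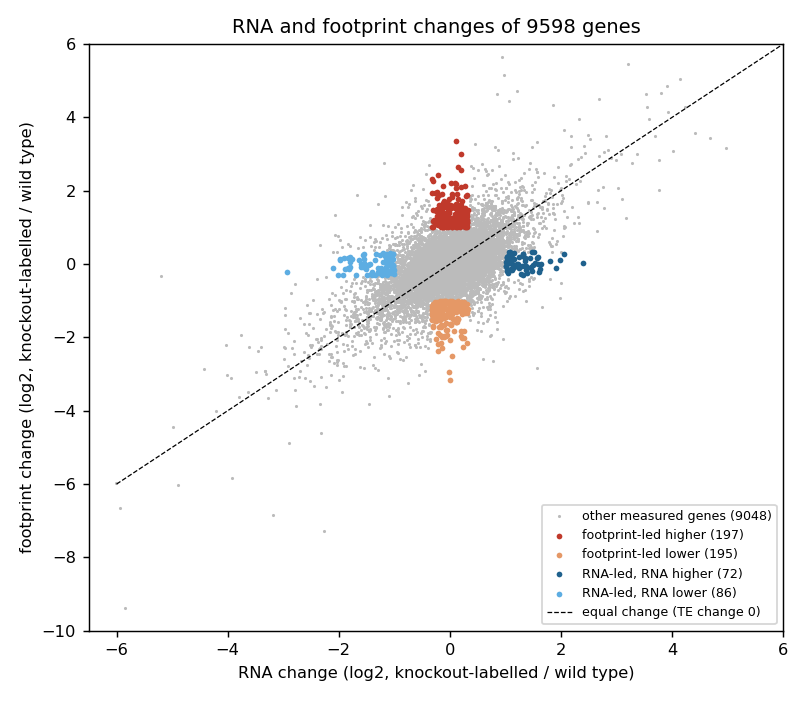
Each point is 1 of 9598 genes, with its RNA change on the horizontal axis and its footprint change on the vertical axis, both log2, knockout-labelled over wild type. The 4 coloured groups hold 197, 195, 72 and 86 genes and form a vertical pair (footprints move, RNA stable) and a horizontal pair (RNA moves, footprints stable), and the dashed diagonal marks a TE change of 0.

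Among RNA-led genes with higher RNA, the ferritin heavy chain FTH1 came first. The first 10 genes of each group are ranked here by the end of the TE interval nearest 0. FTH1 (ENST00000273550, chr11:61964285-61967660, minus strand), a subunit of the iron storage shell, had 15615 wild-type and 58044 knockout-labelled RNA reads. Its footprints were 4252 and 5103, so a 4.13-fold gain in RNA met a 1.20-fold gain in footprints, for a TE change of −1.78 (−1.85 to −1.72). CORO2B, a coronin of the actin cytoskeleton, had 33 and 159 RNA reads and 61 and 62 footprints. Its TE change was −2.38 (−3.12 to −1.64). The transcriptional corepressor DRAP1 had 619 and 1310 RNA reads with 981 and 982 footprints, for a TE change of −1.23 (−1.42 to −1.04). DRAP1 thus had a footprint count that differed by 1 read between libraries of nearly equal total.

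The other 7 of the first 10 had TE changes between −2.01 and −1.53. They were the transporter ABCA13, with 78 and 264 RNA reads and 831 and 773 footprints, the protease inhibitor SERPINE2, the zinc finger gene ZNF561, the choline transporter-like gene SLC44A2, the methylmalonyl-CoA mutase gene MUT, the methionine sulfoxide reductase MSRA and the dehydrogenase family gene SDR39U1. SERPINE2 had 33 and 118 RNA reads and 80 and 86 footprints, and its TE change was −1.87. MUT had 66 and 154 RNA reads and 183 and 163 footprints, and its TE change was −1.53. In each of these genes the RNA change was over 2-fold and the footprint change was under 0.32 on the log2 scale.

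The RNA-led genes with lower RNA are described by the first 10 of their ranking. Of the 38 G1/S and replication genes and the 40 G2/M genes listed further on, 0 were RNA-led. In the footprint-led groups were 1 of the G1/S and replication genes and 0 of the G2/M genes. Those lists do not hold GSG2, PLK4, PKMYT1, CLSPN, CENPI or PRIM2, which are RNA-led with lower RNA. C19orf48 (ENST00000596655, chr19:50797761-50802258, minus strand) had 619 wild-type and 188 knockout-labelled RNA reads, with 157 and 185 footprints, and a TE change of 1.80 (1.41 to 2.19). Its transcript in the table has no annotated coding region in GENCODE 29. GSG2 encodes haspin, the kinase that marks histone H3 at centromeres. It had 171 and 44 RNA reads and 81 and 92 footprints, for a TE change of 1.98 (1.34 to 2.62). PLK4, the kinase that starts centriole duplication, had 129 and 33 RNA reads and 53 and 55 footprints, with 1.85 (1.08 to 2.62). PKMYT1, which holds CDK1 inactive before mitosis, had 175 and 45 RNA reads and 95 and 89 footprints, with 1.70 (1.07 to 2.33). In all of these the knockout-labelled RNA library was low and the footprint libraries were level.

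CCDC77 led this group by TE change, with 114 and 13 RNA reads and 110 and 94 footprints (2.71, 1.80 to 3.61). The nucleolar ribosome biogenesis factor NOP14 had 305 and 123 RNA reads and 179 and 215 footprints, and its TE change was 1.42. RTKN2, JADE2, the mitochondrial fission regulator MTFR2 and TMEM161B completed the first 10, with TE changes of 2.08, 1.73, 1.81 and 2.12. Further down the group, and named after their values were seen, were the replication checkpoint adaptor CLSPN (149 and 35 RNA reads, 103 and 84 footprints), the kinetochore gene CENPI (130 and 33, 84 and 77) and the primase subunit PRIM2 (133 and 59, 152 and 125). UPF1, the helicase of nonsense-mediated decay, had 629 and 278 RNA reads and 579 and 540 footprints. Its TE change of 0.92 (0.66 to 1.19) was under 2-fold.

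The footprint-led genes with lower footprints are likewise described by the first 10 of their ranking. FBXO5 encodes EMI1, the inhibitor of the anaphase-promoting complex, and had 157 wild-type and 32 knockout-labelled footprints on 170 and 139 RNA reads. Its TE change was −2.14 (−2.77 to −1.51). ARRB1, encoding beta-arrestin 1, had 220 and 49 footprints on 136 and 110 RNA reads, with −2.00 (−2.58 to −1.43). RBM38, an RNA-binding protein induced by p53, had 178 and 45 footprints on 400 and 335 RNA reads, with −1.87 (−2.38 to −1.35). Footprints were lower by 4.85-fold, 4.46-fold and 3.92-fold in FBXO5, ARRB1 and RBM38, beside RNA within 0.32 (log2).

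The first gene of this group was CCDC109B, which encodes the MCUb subunit of the mitochondrial calcium uniporter, with 103 and 13 footprints on 101 and 90 RNA reads and a TE change of −2.93 (−3.84 to −2.01). ZNF839 had 58 and 6 footprints on 53 and 48 RNA reads, a TE change of −3.18 that rests on few reads (−4.48 to −1.88). The transcription factor gene CASZ1 had 88 and 15 footprints on 77 and 71 RNA reads, and the ubiquitin ligase gene RNF19B 69 and 15 on 79 and 88. AC006486.9, the laforin-interacting gene EPM2AIP1 and the Rac GTPase-activating gene CHN1 completed the first 10, with TE changes of −2.49, −2.24 and −2.16. LSM4, a subunit of the ring that binds U6 RNA and decapping substrates, is named after its value was seen, for its depth. It had 55150 and 22962 footprints on 2341 and 1909 RNA reads, a TE change of −1.12 (−1.21 to −1.03). At 34.4 scaled footprints for each RNA read in wild type, against 15.8 with the knockout label, its ratio lay far above the wild-type median of all genes, 1.07.

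Footprint-led genes with higher footprints were headed by mitochondrially encoded mRNAs, which are described below. Of the first 10, the others were KRT10, SPHK1, RPL39L, MAP7 and ZNF213. KRT10, a keratin of suprabasal epidermis, had 29 wild-type and 142 knockout-labelled footprints on 118 and 86 RNA reads, with a TE change of 2.57 (1.88 to 3.27). SPHK1, sphingosine kinase 1, had 5 and 56 footprints on 44 and 43 RNA reads (3.24, 1.84 to 4.64). RPL39L, a paralog of the ribosomal protein gene RPL39, had 226 and 795 footprints on 427 and 329 RNA reads, with 2.04 (1.74 to 2.33). RPL39L and RPL39 share most of their coding sequence, so the split of footprints between them is uncertain. The microtubule-binding gene MAP7 had 44 and 170 footprints on 137 and 99 RNA reads, and ZNF213 had 7 and 59 on 85 and 88.

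**Figure D2:**
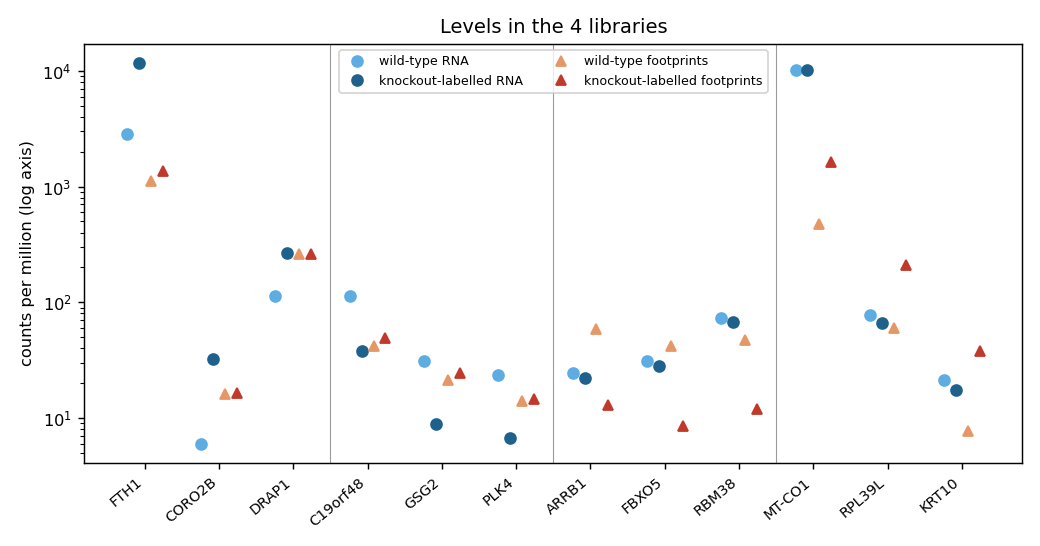
Scaled CPM of 12 genes in the 4 libraries, on a log axis, with 1 point for each library and no replicates, and 3 genes from each group in the order RNA-led with higher RNA, RNA-led with lower RNA, footprint-led lower and footprint-led higher. In the first 6 genes the circles (RNA) are apart and the triangles (footprints) are close, as for DRAP1 with 981 and 982 footprints, and in the last 6 the circles are close and the triangles are apart, as for ARRB1 with 220 and 49 footprints.

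The group boundaries cut a continuous range. Just inside the footprint-led rule lay MAN2A1 (82 and 165 footprints) and CHMP3 (79 and 159), and just outside lay NF2 (93 and 186) and COQ6 (82 and 164). On the lower side STRN (163 and 81) and POLR3K (143 and 71) were inside, and CLCN7 and ECHDC1, both with 198 and 99, were outside. For the RNA-led groups SPNS2 (243 and 439 RNA reads) and PEX11G (18 and 33) were inside, and GMPPA (131 and 236) and DUSP11 (122 and 219) outside. NAGPA (43 and 19) and PRIM2 (133 and 59) were inside, and MRTO4 (391 and 176) and ZFYVE19 (149 and 67) outside.

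Transcript length, which the rule did not use, varied between the groups, and no test was made. Median transcript length was 2394 bases in footprint-led higher genes, 3425 in footprint-led lower genes, 3292.5 in RNA-led genes with higher RNA and 2355 in those with lower RNA, against 2958 over all measured genes. The median coding region was 1023, 1497, 1498.5 and 1338 bases in the same order, against 1365. The median 3′ UTR was 811, 1251, 971.5 and 600 bases, against 941. The quartiles of all groups overlapped, at 1521 to 4095 bases of transcript for footprint-led higher and 2181 to 5709 for footprint-led lower genes. GC content was close in the first 3 groups (medians 48.4%, 50.4% and 49.1%, against 49.4% overall) and 54.5% in RNA-led genes with lower RNA. Groups also began from different levels: in wild type the median gene had 0.537 scaled footprints per RNA read in the footprint-led higher group, 1.06 in the footprint-led lower group, 1.63 in RNA-led genes with higher RNA and 1.02 in those with lower RNA. These wild-type ratios share their counts with the values that chose the groups.

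A small set of 12 genes had RNA and footprints called in opposite directions, and all of them passed the TE call. BRF2, a subunit of a polymerase III initiation factor, had 18 wild-type and 49 knockout-labelled RNA reads while its footprints were 74 and 10, a TE change of −4.40 (−5.61 to −3.19). CCNE1, encoding cyclin E1, had 13 and 38 RNA reads and 43 and 19 footprints, with −2.82 (−4.00 to −1.64). SSBP3 had 40 and 94 RNA reads and 191 and 95 footprints, with −2.38, and GAS8 had 55 and 102 and 37 and 18. The reverse pattern was found in AK7 (44 and 12 RNA reads, 19 and 71 footprints), RFX3 (86 and 18, 21 and 54), ZBTB46 (230 and 84, 21 and 66), ZNF280D (56 and 22, 7 and 50), CCDC137, CEP131, DLX3 and RP11-318A15.7. AK7, RFX3 and GAS8 are known for roles in motile cilia. These 12 were named after their values were seen. All but CCDC137, GAS8, SSBP3 and ZBTB46 had under 100 reads in every library.

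The TE changes ranked first among all genes were NEIL3, ZNF280D, MT-CYB, AK7, RFX3, TEX19, ST8SIA1, ZBTB46, MT-ND5 and MT-CO2 on the higher side. NEIL3, a DNA glycosylase, had 102 wild-type and 2 knockout-labelled RNA reads, yet 72 and 57 footprints, for a TE change of 4.87 (2.99 to 6.75). ST8SIA1, the GD3 ganglioside synthase, had 1489 and 842 RNA reads and only 24 and 109 footprints, with 2.83 (2.19 to 3.47). TEX19 had 1 and 75 footprints on 92 and 159 RNA reads. On the lower side were BRF2, PCGF6, CCDC109B, CHIC1, ZNF205, ZNF839, TMEM55A, PHACTR2, IFT74 and SSBP3. PCGF6, a Polycomb group subunit, had 59 and 9 footprints on 49 and 76 RNA reads, with −3.43 (−4.54 to −2.31), and IFT74, of the ciliary transport complex, had 102 and 26 on 30 and 45, with −2.68.

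Messages for cytosolic ribosomal proteins had higher TE in the knockout-labelled libraries, with most of their RNA within 0.32 (log2). In lists of genes known to share a mode of translational control, members were called at 1.5-fold with an interval that left out 0, and by this rule 15.7% of all measured genes were higher and 13.9% lower, together 29.6%. These calls rest on counting error alone. With a squared coefficient of variation of 0.04 assumed between cultures the smallest half-width of an interval was 1.13, so every list call with a smaller TE change was lost, and the counts that remained are given at the end. Of the 79 ribosomal protein genes, all measured, 44 were higher and 0 lower, and 75 had a TE change above 0. Their median TE change was 0.62 against 0.03 over all genes, their median footprint change 0.55 and their median RNA change −0.07, and RNA stayed within 0.32 (log2) for 57. Their summed share of footprints was 5.48% in wild type and 8.13% with the knockout label, and that of RNA 6.29% and 6.14%. The small subunit (18 of 32 higher, median 0.64) and the large subunit (26 of 47, median 0.61) had similar values. Processed copies of ribosomal protein genes are frequent in the genome, so counts of single members are uncertain where reads could be split.

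RPSA, the laminin receptor and small-subunit protein, had the highest value, with 1974 wild-type and 4379 knockout-labelled footprints on 8577 and 6086 RNA reads, a TE change of 1.49 (1.40 to 1.58). RPL41, the shortest ribosomal protein, had 646 and 1256 footprints on 9896 and 6487 RNA reads (1.42, 1.27 to 1.56). RPL19 had 2984 and 6516 on 4680 and 3734 (1.30), and RPS13 3675 and 8026 on 4597 and 3955 (1.19). RPL13A and RPL18 had 1.27 and 1.26, and RPS14 and RPS2 1.03 and 0.95. The 4 members below 0 were RPL30 (−0.30), RPL23A (−0.08), RPL22 (−0.05) and RPL35 (−0.01), with 2833 and 2589, 4246 and 2579, 1051 and 946, and 6491 and 6511 footprints. RPL23A also had 4972 and 2883 RNA reads, so its RNA and footprints were lower alike.

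Start sequences of these messages are shown because the pyrimidine tract at the cap is the shared element of the TOP family. Each window runs from 10 bases before to 20 bases from the annotated start in RefSeq (GRCh38.p14), on the gene's strand, with the longest run of C and T in capitals. The first 5 genes passed the 1.5-fold call for higher TE and the last 2 did not.
RPSA: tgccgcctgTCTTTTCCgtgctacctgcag
RPL41: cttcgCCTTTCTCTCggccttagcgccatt
RPL18: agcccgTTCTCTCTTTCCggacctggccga
RPS13: ctctcgCTCTCCTTTCgttgcctgatcgcc
EEF2: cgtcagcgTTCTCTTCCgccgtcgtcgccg
RPL22: cgctcaCCTCCCTTTCTaactccgctgccg
RPL35: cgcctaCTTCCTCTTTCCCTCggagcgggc
The windows lie at chr3:39406710-39406739 (plus strand), chr12:56116623-56116652 (plus), chr19:48619159-48619188 (minus), chr11:17077648-17077677 (minus), chr19:3985444-3985473 (minus), chr1:6199576-6199605 (minus) and chr9:124861938-124861967 (minus). A run of at least 8 pyrimidines, read on the gene's strand only, was found in 51 of the 63 ribosomal protein genes with a window (81.0%). The share was 12.9% among 7368 measured genes with a window and 12.7% among all 35116 RefSeq windows. Ribosomal protein genes with a run had a median TE change of 0.60 and those without one 0.65. RPL22 and RPL35 have runs of 11 and 15 pyrimidines with TE changes of −0.05 and −0.01. Among the 4 groups the share with a run was 11.5% (footprint-led higher), 14.7% (footprint-led lower), 12.5% and 13.3% (RNA-led, higher and lower RNA).

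Of 22 other TOP messages measured, 10 had higher TE and 0 lower, with a median TE change of 0.54. Their median RNA change was −0.26 and their median footprint change 0.17, against −0.07 and 0.55 for the ribosomal proteins, so lower RNA made up more of the TE change here. EEF2, the translocase of elongation, had 5631 wild-type and 10853 knockout-labelled footprints on 14628 and 13090 RNA reads (0.95, 0.90 to 1.01). EEF1A1, which brings aminoacyl-tRNA to the ribosome, had 18265 and 28933 footprints on 54491 and 45500 RNA reads (0.77, 0.74 to 0.80). Its many genomic copies make this value uncertain. EEF1G and EEF1D, of the exchange complex of that factor, had 0.98 and 1.01. EEF1G had 1405 and 2678 footprints on 4829 and 4192 RNA reads, whereas in EEF1D the RNA differed more, with 1598 and 845 RNA reads and 1057 and 1252 footprints. PABPC1, the cytoplasmic poly(A)-binding protein, had a TE change of −0.16 and the importin IPO5 0.02. A run of 8 pyrimidines was found in 11 of the 14 with a window (78.6%), where the median TE change was 0.55, against 0.21 for the other 3.

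Translation factors without a listed TOP start stood closer to all genes, with 2 of 38 called higher, 2 called lower and a median TE change of 0.16. EIF4A1, the RNA helicase of the initiation complex eIF4F, had 5236 and 7542 footprints on 4822 and 3719 RNA reads (0.75, 0.67 to 0.83), and the subunit-joining factor EIF5B 773 and 677 on 855 and 410 (0.72). EIF4EBP2, a repressor of cap-dependent initiation that mTOR inactivates, had 191 and 72 footprints on 1473 and 1107 RNA reads (−1.14, −1.55 to −0.74). EIF4E2, a cap-binding protein that competes with eIF4E, had 78 and 58 footprints on 163 and 191 RNA reads (−0.80). The aminoacyl-tRNA synthetases had 3 of 22 called higher and 0 called lower (median 0.12), the 3 being HARS, FARSA and RARS at 0.69, 0.73 and 0.62. MTOR itself, named after its value was seen, had 300 and 551 footprints on 767 and 578 RNA reads, a TE change of 1.13 (0.88 to 1.39).

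Mitochondrially encoded mRNAs had the highest median TE change of any list, 2.09, with 11 of the 12 measured members higher and 0 lower. These messages encode core subunits of the respiratory chain and are read by the ribosomes of the mitochondrion, not by those of the cytosol. Over all 13 genes, footprints summed to 3123 wild-type and 10953 knockout-labelled reads (0.0826% and 0.290% of the totals), while RNA summed to 111217 and 95049. MT-CO1 had 1779 and 6113 footprints on 56492 and 50302 RNA reads (1.80, 1.72 to 1.87), MT-CO2 555 and 2061 on 15667 and 12340 (2.08), and MT-CO3 171 and 559 on 8039 and 5510. They encode the 3 catalytic subunits of cytochrome c oxidase. MT-CYB, of complex III, had 150 and 817 footprints on 6626 and 5151 RNA reads (2.65, 2.40 to 2.91). The ATP synthase genes MT-ATP6 and MT-ATP8 had 65 and 252 and 64 and 179 footprints, with TE changes of 2.22 and 1.16.

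The complex I genes of the mitochondrial genome varied most. MT-ND5, MT-ND2, MT-ND3 and MT-ND6 had 76 and 452, 22 and 73, 8 and 54, and 34 and 113 footprints, wild type first, and TE changes of 2.37, 2.33, 2.30 and 1.82. MT-ND4 had 103 and 189 footprints on 8460 and 8807 RNA reads, with 0.66 (0.31 to 1.01). MT-ND1 had 64 and 75 on 2879 and 2297, and its TE change of 0.40 (−0.08 to 0.89) was not called. MT-ND4L, with 32 and 16 footprints, fell under the minimum. Of the 12, 7 met the footprint-led rule. Nuclear copies of mitochondrial sequence share reads with these genes, and how such reads were assigned is not given in the sources used here.

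In the nuclear-encoded partners of these mRNAs the list medians were near that of all genes. The mitochondrial ribosomal proteins had 15 of 77 called higher and 4 called lower, with a median TE change of 0.05, and the nuclear-encoded respiratory chain 11 of 75 called higher and 2 called lower, with 0.10. MRPS18C, MRPS11 and MRPS21 had the highest values among mitochondrial ribosomal proteins named here, 1.98, 1.61 and 1.43, and MRPL46 the lowest, −1.30. MRPS11 (chr15:88467453-88480773, plus strand) and MRPL46 (chr15:88459476-88467419, minus strand) are neighbours with adjoining starts. MRPS11 had 126 and 271 footprints on 226 and 143 RNA reads, and MRPL46 227 and 131 on 98 and 126, so the pair's TE changes had opposite signs. Within the respiratory chain the complex I subunits NDUFB1 (480 and 755 footprints, 622 and 327 RNA reads) and NDUFS5 (365 and 658, 420 and 313) had 1.43 and 1.12. The succinate dehydrogenase anchor SDHD (638 and 467, 319 and 424) had −1.01, and ATP5G3, a c subunit of ATP synthase, had 2275 and 1394 footprints on 7767 and 7635 RNA reads (−0.83).

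**Figure D3:**
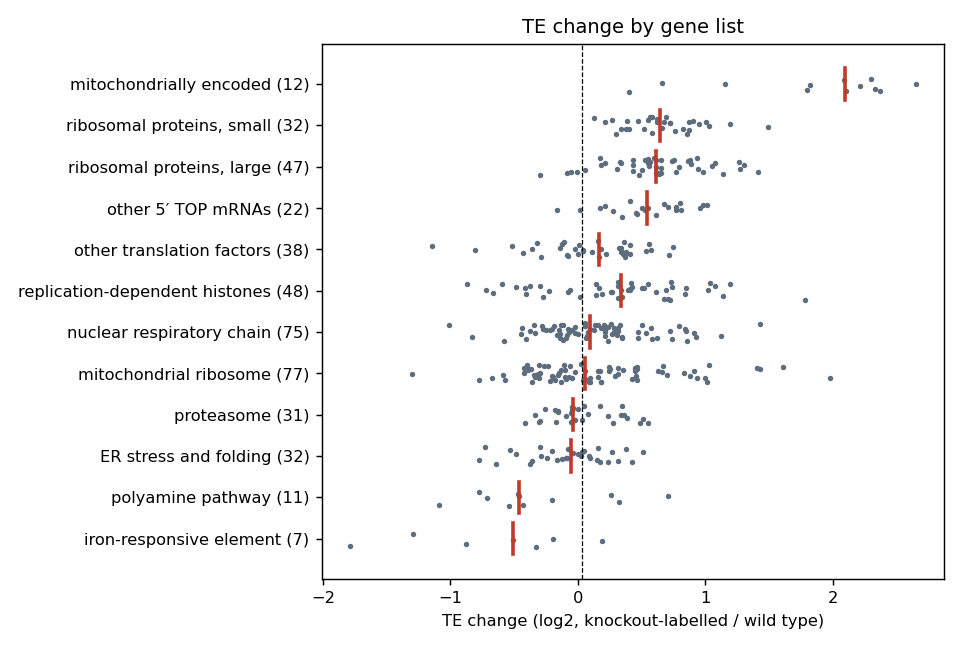
TE change (log2, knockout-labelled over wild type) of the measured members of 12 gene lists, 1 grey point per gene with the number of genes in brackets, the list median as a red bar and the median of all 9598 genes, 0.03, as a dashed line. The mitochondrially encoded list (median 2.09) and the ribosomal protein and other TOP lists (0.61, 0.64 and 0.54) lie to the right, and the polyamine (−0.46) and iron-responsive element (−0.50) lists to the left. Only 12 of the 30 lists are drawn. Among those left out, the hair keratins (6 genes, median 0.62) and the Wnt target and stem cell genes (18 genes, 0.44) also had medians above that of all genes.

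Of 7 measured messages with an iron-responsive element, 3 had lower TE and 0 higher, and both ferritin subunits were among the 3. The list's median TE change was −0.50. The element's loop lies within 30 bases printed here from the 5′ UTR of the deposited transcripts (GENCODE 29, sense strand), with C, any 5 bases, CAGTG and 1 further base in capitals.
FTH1: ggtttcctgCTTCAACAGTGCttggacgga
FTL: tgtctcttgCTTCAACAGTGTttggacgga
EPAS1: ccgtacaatCCTCGGCAGTGTcctgagact
These start at bases 56, 32 and 75 of the transcripts. This pattern, read on the sense strand only, was found in 717 of 9589 measured 5′ UTRs (7.48%), so a match alone is a description and not an element. The ferritin light chain FTL (ENST00000331825, chr19:48965301-48966878, plus strand) had 623 wild-type and 197 knockout-labelled footprints on 6425 and 4483 RNA reads, for a TE change of −1.29 (−1.53 to −1.05). FTH1, with the values given above, had −1.78. The route differed: RNA rose in FTH1 with a footprint change of 0.26, and footprints fell in FTL by 1.66 on the log2 scale beside an RNA change of −0.37. Both ferritin genes have many processed copies, and their counts are uncertain for that reason.

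EPAS1, which encodes the hypoxia factor HIF-2 alpha and also has a 5′ element, was not called. It lost RNA and footprints alike (2551 and 556 RNA reads, 1972 and 418 footprints) and had a TE change of −0.19 (−0.39 to 0.01). In TFRC, SLC11A2 and CDC42BPA the elements are in the 3′ UTR and bear on stability. The transferrin receptor TFRC had 894 and 1866 RNA reads and 1006 and 1644 footprints (−0.50, −0.67 to −0.34). The iron transporter SLC11A2 had 68 and 152 RNA reads and 114 and 154 footprints (−0.87, −1.41 to −0.34), and CDC42BPA had −0.33.

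The polyamine pathway had 3 of 11 genes with lower TE and 1 with higher TE, and a median of −0.46, and 0 of 11 were called with the added variance. The rate-limiting enzyme of polyamine synthesis, ODC1, had 876 wild-type and 557 knockout-labelled footprints on 1931 and 1812 RNA reads (−0.71, −0.89 to −0.53). Spermidine synthase SRM had 303 and 205 on 638 and 665 (−0.77), and the spermine oxidase SMOX 57 and 46 on 100 and 155 (−1.09). The member that was higher was OAZ1, the antizyme that sends ODC1 to the proteasome and is made by a polyamine-sensed ribosomal frameshift, with 796 and 984 footprints on 2818 and 1916 RNA reads (0.71, 0.55 to 0.87). AMD1, AZIN1 and ATP13A3 had −0.47, −0.46 and −0.54, with intervals below 0 but under 1.5-fold. SMS, SAT1, OAZ2 and PAOX had 0.33, 0.26, −0.20 and −0.43.

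Stress messages under control of upstream open reading frames had 2 of 13 called higher and 1 called lower, with a median of 0.15. ATF4, the transcription factor of the integrated stress response, had 1483 and 2028 footprints on 2173 and 2403 RNA reads, a TE change of 0.15 (0.03 to 0.28). PPP1R15A, the phosphatase subunit that ends that response, had 265 and 564 on 307 and 416 (0.50), and DDIT3 266 and 472 on 278 and 481 (−0.12). The 2 called higher were CEBPB (295 and 815 footprints, 461 and 715 RNA reads, 0.68) and TXNIP (2480 and 20279, 1861 and 9079, 0.59), and RNA rose in TXNIP as well. ATF5 was lower, with 98 and 36 footprints on 85 and 65 RNA reads (−1.20, −1.92 to −0.48). The remaining members, HIF1A, EPRS, IFRD1, IBTK, SLC35A4, MIEF1 and PPP1R15B, lay between −0.14 and 0.18. Targets of ATF4 and amino acid genes had 4 of 28 called higher, 1 called lower and a median of 0.03, with the glutathione-degrading enzyme CHAC1 at 1.42 (113 and 212 footprints, 173 and 109 RNA reads) and ATF3 at −1.05 (142 and 72, 110 and 104).

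Selenoprotein messages, which recode a UGA codon, had 6 of 17 called lower and 1 called higher, with a median of 0.04. With the added variance 1 was lower and 1 higher. SELM had 43 and 30 footprints on 13 and 48 RNA reads (−2.51, −3.61 to −1.41), SEPN1 91 and 69 on 431 and 558 (−0.92), and SEPHS2, which makes the selenium donor, 161 and 158 on 326 and 505 (−0.81). In these 3 genes RNA was higher in the knockout-labelled library and footprints were not. C11orf31, encoding selenoprotein H, was the member with higher TE, at 142 and 414 footprints on 269 and 258 RNA reads (1.45, 1.08 to 1.82). The peroxidases GPX1 and GPX4 had 0.26 and 0.37.

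Replication-dependent histone genes, whose RNA and footprints were both low in the knockout-labelled libraries (medians of −2.31 and −1.98), had 14 of 48 members with higher TE and 4 with lower, and a median TE change of 0.34. HIST1H2BI had 213 wild-type and 24 knockout-labelled RNA reads with 265 and 116 footprints (1.78). HIST1H4B had 812 and 93 RNA reads and 1515 and 442 footprints (1.19), and HIST1H4K 1170 and 213 and 3757 and 1605 (1.08). Histone copies are nearly identical, so the values of single members are uncertain. The G2/M list had 5 of 40 called higher and 3 called lower with a median TE change of 0.13, and the G1/S and replication list 4 of 38 called higher and 6 called lower with 0.06, although their median RNA changes were −1.19 and −1.10. Their median footprint changes were −1.08 and −1.14, and 32 and 28 genes had no TE call. MCM5, of the replicative helicase, had 335 and 50 RNA reads and 440 and 203 footprints (1.47, 0.98 to 1.96), and the licensing factor CDT1 367 and 95 and 336 and 203 (1.07). UHRF1, also on the G1/S and replication list, was lower, with 649 and 279 RNA reads and 708 and 188 footprints (−0.85). In the G2/M list NUSAP1, BIRC5 and INCENP were higher, at 0.96, 0.96 and 0.69. CENPE, the kinetochore motor, was lower, with 138 and 84 RNA reads and 267 and 89 footprints (−1.02).

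Wnt target and stem cell genes had 7 of 18 called higher and 2 called lower, a median TE change of 0.44 and median RNA and footprint changes of −1.81 and −1.41. LEF1, a transcription factor of the pathway, had 382 wild-type and 154 knockout-labelled RNA reads with 122 and 130 footprints (interval of the TE change 0.80 to 1.69), and met the RNA-led rule. NKD2 had 252 and 92 RNA reads and 103 and 75 footprints (0.84), and EPHB3 had 18 and 41 footprints on 77 and 68 RNA reads (1.19). AXIN2, a feedback inhibitor, went the other way, with 1410 and 312 RNA reads and 612 and 96 footprints (−0.64).

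Transcripts described as bound by IMP1 had 3 of 17 members higher and 3 lower, with a median TE change of 0.32. PPP1R9B, encoding spinophilin, had 117 wild-type and 42 knockout-labelled footprints on 410 and 403 RNA reads, a footprint-led change of −1.59 (−2.14 to −1.05). ATG3, the E2-like enzyme that conjugates LC3, had 288 and 242 on 239 and 305 (−0.75, −1.10 to −0.41). On the higher side were LEF1, IGF2 (37 and 60 footprints, 637 and 411 RNA reads, 1.17) and the chromatin protein HMGA2 (0.84). ACTB, CD44, CTNNB1 and MAP1LC3B had 0.43, 0.32, −0.35 and 0.27. The counts of this list were equal in both directions, and the shares of all genes were 15.7% and 13.9%.

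Autophagy genes also went both ways, with 4 of 33 called higher and 5 called lower and a median of 0.06. The initiating kinase ULK1 had 86 and 47 footprints on 155 and 179 RNA reads (−1.22, −1.82 to −0.63), and WDR45B, a phosphoinositide-binding protein, 85 and 39 on 417 and 391 (−1.17). AMBRA1 had 103 and 125 on 212 and 126 (0.87). RNA-binding regulators of translation and decay had 4 of 35 called higher and 4 called lower (median 0.06), among them YBX1 (1359 and 1549 footprints, 4477 and 2775 RNA reads, 0.73) and the deadenylase subunits CNOT8 and CNOT7 (−0.90 and −0.75). With 200 reads as the minimum the median of these regulators was −0.01.

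The proteasome had 0 of 31 members called in either direction, a median of −0.03 and a range of −0.41 to 0.55. Endoplasmic reticulum stress and folding genes, whose median RNA and footprint changes were 0.62 and 0.48, had 0 of 32 called higher, 3 called lower and a median TE change of −0.06. The 3 were the translocon-associated SSR2 (−0.73), the ubiquitin ligase SYVN1 (−0.78) and SDF2L1 (−0.64). Heat shock chaperones had 5 of 26 called higher and 0 called lower (median 0.26), with the constitutive chaperone HSPA8 at 12605 and 22861 footprints on 9039 and 9370 RNA reads (0.66, 0.60 to 0.71) and HSP90AB1 at 9293 and 8833 on 6027 and 3348 (0.62). Glycolysis had 1 of 22 called higher and 0 called lower (0.23), the member being ALDOC at 1.67. Cholesterol synthesis had 4 of 27 called higher and 2 called lower (0.06), with mevalonate kinase MVK at 78 and 26 footprints on 30 and 29 RNA reads (−1.67).

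Integrin and matrix genes had 5 of 23 called higher and 2 called lower (median 0.09). COL4A2 had 98 and 28 RNA reads with 55 and 59 footprints (1.74, 0.94 to 2.54), while the integrin ITGAV had 268 and 130 footprints on 335 and 333 RNA reads (−1.18, −1.56 to −0.81). Immediate early genes had 3 of 28 called higher and 3 called lower (0.14), JUND at −1.06 (97 and 55 footprints, 351 and 376 RNA reads) and CYR61 at 0.83 (221 and 585, 233 and 312). Interferon response genes had 3 of 24 called higher and 0 called lower (0.10), with IFI35 at 25 and 93 footprints on 31 and 24 RNA reads (2.09). Hair keratins had median RNA and footprint changes of 3.85 and 4.31 and 2 of 6 members with higher TE (median 0.62). KRT81 had 374 and 5041 RNA reads and 520 and 15170 footprints (0.96, 0.77 to 1.16), and reads of KRT81 and KRT83 (0.86) may be split.

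Calls varied with the reads of a gene's least covered library, a count that also enters its TE change. Each pair of libraries must hold at least 50 reads, so a very low count in 1 library requires a higher one in its partner. The shares are therefore partly set in advance and do not measure depth alone. Of the 73 genes whose lowest library had 0 to 9 reads, 63.0% were called in TE. The share was 38.9% of 1135 genes at 10 to 29 reads and 16.7% of 3519 at 30 to 99. It was 3.77% of 3105 genes at 100 or more but under 300 and 1.76% of 1766 at 300 or more. In this deepest class the standard deviation of TE changes over genes was 0.388 and the median interval half-width 0.213, and 24 genes were higher and 7 lower. The 7 were FTH1, ZMAT2, DRAP1, PTCD3, NSMF, LSM4 and SDHD. Among the 24 were MT-CO2, MT-CO1, EEF1D and the ribosomal protein genes RPSA, RPL41, RPL19, RPL13A, RPL18, RPS13, RPL32, RPL39, RPS14 and RPS28. Names in this class were chosen after their values were seen. Under the assumed variance between cultures, 320 genes had higher TE and 293 lower, together 6.39% of all measured genes, and IGF2BP1 was not called. Of the ribosomal protein genes 6 of 79 were higher and 0 lower, a called share of 7.59% that is near that of all genes. Of the mitochondrially encoded mRNAs 9 of 12 were higher (75%), and both ferritin genes were lower. The mitochondrial ribosomal proteins had 4 of 77 higher and 1 lower. Histones had 2 of 48 higher. The IMP1 targets, selenoproteins and G1/S genes each had 1 higher and 1 lower. The respiratory chain, ATF4 target, Wnt, glycolysis, integrin and interferon lists each had 1 higher, and cholesterol synthesis had 1 lower. No member was called of the other TOP messages, translation factors, upstream open reading frame, aminoacyl-tRNA synthetase, endoplasmic reticulum, polyamine, G2/M, autophagy, proteasome, immediate early, hair keratin, chaperone and RNA-binding regulator lists.

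**Figure D4:**
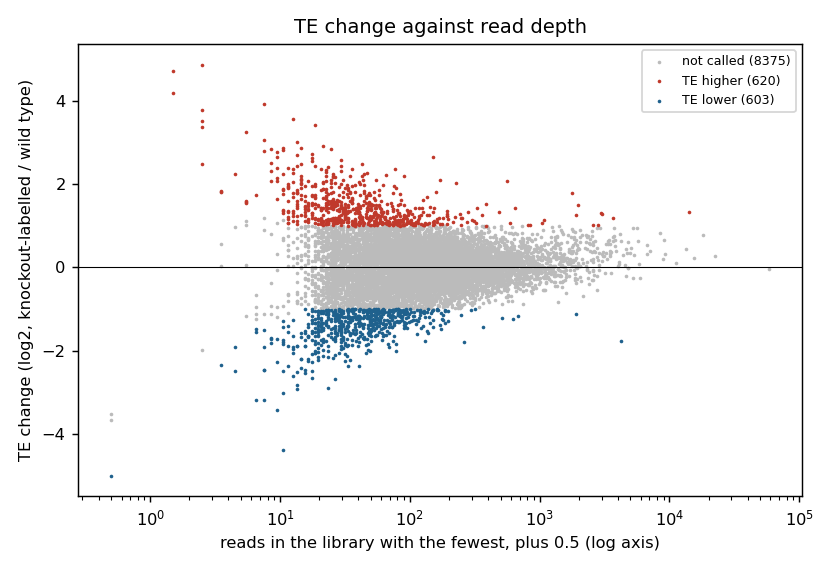
TE change (log2, knockout-labelled over wild type) of 9598 genes against the reads in each gene's least covered library, plus 0.5, on a log axis, with the 620 genes called higher in red and the 603 called lower in blue. The called genes lie mostly to the left, and among the 1766 genes with 300 reads or more in every library 31 were called.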

How the data were processed

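Ribosome footprints and total RNA were sequenced from wild-type and IMP1-/- SW480 cells, 1 library of each kind per genotype and 3 pooled plates per library. The authors deposited whole-number counts per gene, 1 transcript a gene, which were joined by gene and transcript. Per the labels' protocols, footprints and randomly fragmented RNA were ligated to linkers with random bases, ribosomal RNA was depleted and the libraries were amplified by PCR. Per the submitters' processing notes, HISAT2 2.1.0, Bowtie 1.1.2, cutadapt 1.10 and build GRCh38 were used. The sources used here do not state their roles, the region counted, the treatment of reads with several matches or whether duplicates were collapsed by the random bases.

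The 2 libraries of each kind were scaled by TMM (edgeR 4.0.16, R 4.3.3). RNA, footprint and TE changes are log2 ratios with a prior count of 0.5, computed with NumPy 2.4.6, SciPy 1.17.1 and pandas 2.3.3 in Python 3.11.15, and plotted with matplotlib 3.10.9. Intervals at 95% are exact (Clopper-Pearson) for RNA and footprints and come from the summed reciprocals of the counts for TE. They cover counting error only. With 1 library per group there are 0 residual degrees of freedom, so no test was made. A library with no reads for a gene allows up to 3 counts, which is 0.793 CPM in wild-type and 0.794 in knockout-labelled footprints and 0.540 and 0.608 in RNA. The script was tested on simulated counts. Alternatives were other scalings, read minimums, priors and thresholds, library make-up, and an added variance between cultures. Transcript structures are from GENCODE 29, where 19176 of the 19192 transcripts were found, and start windows are from RefSeq.

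The genes, the 30 lists and the thresholds were chosen with earlier results of these data known, and 2 further lists were added after the values were seen. Named were the 3 IMP1 family genes, the first 10 genes on each side of the TE change and in each of the 4 groups, up to 4 members of each list past 1.5-fold, and every measured member of the iron, upstream open reading frame, polyamine and mitochondrially encoded lists, 180 genes in all. Other genes are named as list members or after their values were seen. MYC was not analysed here. A few list members are counted but not reported by name.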

Additional observations from a re-analysis of the deposited data

How the results depend on the processing

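The counts of genes with higher TE, lower TE, footprint-led higher, footprint-led lower, RNA-led higher and RNA-led lower calls were 620, 603, 197, 195, 72 and 86. They were within 1.5 times of these under library totals, DESeq2 size factors, centring at the median, a minimum of 20 reads, a prior of 2 and without copies, mitochondrial and histone genes. With a minimum of 200 reads, which leaves 5715 genes, they were 169, 131, 64, 46, 12 and 24, and with a minimum of 1 read, which admits 13576 genes, 1079, 1059, 311, 308, 131 and 150. With a squared coefficient of variation of 0.04 added, 320 and 293 genes had a TE call. When RNA or footprints under 1.5-fold counted as stable, the 4 groups held 333, 325, 141 and 182 genes. When 1.5-fold counted as a change, the 6 counts were 1510, 1335, 574, 543, 337 and 355. None of the 180 named genes changed direction in any of these settings in which it was measured. Of 2-fold calls, those lost were EEF1D under library totals, SDHD under DESeq2, RPS14 and EEF1D under centring, and 21 genes, IGF2BP1 among them, under the added variance. That variance also ends every 1.5-fold list call with a TE change under 1.13, those of EEF2, EEF1A1, EIF4A1, ODC1, OAZ1, CEBPB and HSPA8 among them. No paired analysis was possible because each group has 1 library. Depth limits single genes: the median half-width of a TE interval was 0.46, and genes with few reads can be called only at large changes. The wild-type RNA library, whose label conflicts, enters every value and could not be left out.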

Other observations

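Zinc finger genes with a ZNF symbol, a list added after the values were seen, were called in both directions. Of 157 measured, 37 had higher TE and 27 lower TE at 1.5-fold, with a median TE change of 0.04. The shares of all genes were 15.7% and 13.9%. Of the 157, 14 were footprint-led and 6 RNA-led. Among all measured genes the footprint-led shares were 2.05% (higher) and 2.03% (lower), and the RNA-led shares 0.75% and 0.896%. Most ZNF genes in the counts fell under the read minimum, and calls were more frequent among genes with few reads. Whether depth accounts for the counts of this list was not tested. ZNF280D had 7 and 50 footprints on 56 and 22 RNA reads, wild type first (3.93), and ZNF205 had 45 and 7 on 33 and 45 (−3.19). Their sequences resemble each other, so reads may be split between members.

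The nuclear MTRNR2L copies of the mitochondrial 16S ribosomal RNA gene, also listed after their values were seen, did not share the TE change of the mitochondrially encoded mRNAs as a group. Of 11 copies, 2 had higher TE and 1 lower TE at 1.5-fold, with a median of 0.26, and the shares of all genes were 15.7% and 13.9%. Their footprints summed to 109540 and 136172 and their RNA to 686136 and 598446. The 2 with higher TE were MTRNR2L11, with 14025 and 32657 footprints on 106181 and 88306 RNA reads (1.33), and MTRNR2L6, with 2565 and 4197 on 84035 and 61686 (1.00). MTRNR2L12 had 58706 and 59533 on 145818 and 136156 (−0.03), and MTRNR2L5 44 and 38 on 619 and 1147 (−1.25).

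Several deeply counted genes outside the lists had called TE changes, and they are named after their values were seen. The nucleosome-binding protein gene HMGN2 had 1847 and 763 RNA reads and 387 and 508 footprints (1.52). The tight junction gene CLDN7 had 484 and 1932 footprints on 647 and 919 RNA reads (1.34). On the lower side ZMAT2, a splicing factor gene, had 364 and 586 RNA reads and 599 and 394 footprints (−1.44). PTCD3, which binds the mitochondrial small ribosomal subunit, had 841 and 512 footprints on 1609 and 2038 RNA reads (−1.21), and NSMF 3219 and 682 on 14842 and 6386 (−1.17).

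TE changes also varied with the length of the coding region. With the genes in 5 equal classes by coding length, shortest first, the median TE changes were 0.17, 0.04, 0.03, −0.08 and −0.02. Without ribosomal protein and mitochondrial genes the first value was 0.14. TE was called higher for 9.18% of genes in the first class and 4.48% in the last. Across 9589 genes, which are not independent replicates, Spearman's rho of TE change with coding length was −0.11.

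At the end of the short arm of chromosome 4, 48 measured genes had median RNA and footprint changes of −0.79 and −0.85 and a median TE change of −0.05. Of the 48, 5 were footprint-led lower and 3 RNA-led with lower RNA, and 0 were in the other groups. The shares of all measured genes in those groups were 2.03% and 0.896%. NOP14 (chr4:2937933-2963385), named above as RNA-led with lower RNA, lies there. This segment was singled out after the values were seen. Chromosomes 19 and 11 were also singled out after the values were seen. Chromosome 19, with 6.23% of measured genes, held 12 of the 86 RNA-led genes with lower RNA (14.0%), and chromosome 11, with 6.22%, held 10 of the 72 with higher RNA (13.9%). The median RNA and TE changes were −0.21 and 0.13 on chromosome 19 and −0.01 and 0.02 on chromosome 11.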
